A study of Mus musculus with 24 samples.

Results

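The genes described here are Rbm20, Rbm24, Mbnl1, Mbnl2, Celf1, Celf2, Rbfox1, Rbfox2, Qk and Ptbp1. They encode RNA-binding proteins that decide which exons are kept in muscle transcripts. They were taken as a list of 10 names, matched by gene identifier among the 56923 identifiers of the files, and all 10 were among the 20368 genes tested. Nuclear RNA of mouse cardiomyocytes (CMs) was counted at postnatal days 1, 7 and 14 (P1, P7 and P14) to follow the postnatal heart with and without Casp2, the gene of the protease Caspase-2. Nuclei from ventricles were sorted for PCM1, a centriolar satellite protein that marks CM nuclei, and each library held the pooled nuclei of 15 hearts at P1, 6 at P7 and 2 at P14, so pool size and day cannot be told apart.

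All mice carried loxP-flanked Casp2 alleles. Control mice (XMLC2-Casp2fl/fl, given as WT in one label) had no Cre, while Casp2-depleted mice (XMLC2+Casp2fl/fl) also carried a Cre recombinase under the XMLC2 promoter, which is active in CMs. There was no group with Cre and unmodified Casp2, so Cre and Casp2 loss cannot be told apart here. Each of the 6 groups had 4 libraries. One library each of the P1 controls (replicate 1), the P14 controls (replicate 3) and the P14 depleted CMs (replicate 1) did not pass the study's quality control and was set aside. The groups then held 3 P1 control, 4 P1 depleted, 4 P7 control, 4 P7 depleted, 3 P14 control and 3 P14 depleted libraries.

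Depth ran from 891817 to 2924097 gene reads over the 21 kept libraries (median 1452114), with 7628 to 17770 genes detected. Between 34.3 and 76.1% of uniquely mapped reads fell outside genes. All 10 CM markers (Myh6, Tnnt2, Ttn and others) were read in each group, at a summed 12050 to 82158 counts scaled to the reads on genes alone (CPM without TMM) in single libraries, against 75.4 to 379 CPM for 8 fibroblast, 53.2 to 1115 for 8 endothelial and 48.8 to 344 for 8 macrophage markers. Casp2 itself had no read in any P1 or P14 library, 9 reads over the 4 P7 control libraries and 8 over the 4 P7 depleted ones, so its depletion could not be checked at this depth.

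Splicing regulators of this kind bind short RNA motifs beside an alternative exon and, depending on where they sit, help or block its inclusion. In the newborn heart the balance between CELF proteins, which favour fetal exons, and MBNL proteins, which favour adult ones, is known to shift, and RBM20 sets the length of titin by keeping spring exons out. RBFOX proteins recognize GCAUG, QKI binds ACUAA-like sites, and PTBP1 binds pyrimidine-rich tracts and represses many muscle and neuronal exons. RNA counts do not show which exons were used, and no exon usage was measured here.

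The genes differ strongly in size. In GRCm39, Rbm20 lies at chr19:53665697-53855514 (+), Rbm24 at chr13:46571589-46584575 (+), Mbnl1 at chr3:60380102-60537183 (+), Mbnl2 at chr14:120512932-120669110 (+) and Qk at chr17:10411459-10539275 (-). Celf1 lies at chr2:90770584-90849842 (+), Celf2 at chr2:6544505-7514374 (-), Rbfox1 at chr16:5124665-7230343 (+), Rbfox2 at chr15:76963189-77191303 (-) and Ptbp1 at chr10:79690261-79700605 (+). Reads were counted over the whole gene, introns included, and annotated exons make up 0.463% of Rbfox1, 2.72% of Celf2 and 4.08% of Rbm20 but 42.5% of Rbm24 and 46.6% of Ptbp1. Rbfox1 spans 2106 kb, more than 99.98% of the tested genes with a position, and Ptbp1 10.3 kb. The kit primes on runs of adenines, and the sense strand of Rbfox1 holds 117 runs of at least 10 adenines, that of Celf2 holds 97, that of Rbm24 1 and that of Ptbp1 0. Genes on the opposite strand cover 47.1% of Ptbp1, and Plppr3, the best read of them, had 67 reads in the 21 libraries. Strand settings of the counting are not given in the sources used here, so reads from overlapping genes may have been shared or set aside. For the other 9 genes that cover was 0 to 5.24%.

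The promoter windows of Rbm24, Mbnl2 and Qk are shown because these genes have a single start site in the RefSeq table (GRCm38.p6) and their counts moved together with those of Rbm20 between days, a choice made after their values were seen. RefSeq windows were found for 8 of the 10 genes, and those of Rbm20 and Rbfox2 are not shown. Each window runs from 250 bases before to 50 after the start site, 5′ to 3′ on the gene's strand, at chr13:46418050-46418349 (+) for Rbm24, chr14:120275419-120275718 (+) for Mbnl2 and chr17:10319312-10319611 (-) for Qk. Capitals mark CANNTG, the E-box read by muscle transcription factors, CCAAT and TATAAA, each searched on both strands.
Rbm24: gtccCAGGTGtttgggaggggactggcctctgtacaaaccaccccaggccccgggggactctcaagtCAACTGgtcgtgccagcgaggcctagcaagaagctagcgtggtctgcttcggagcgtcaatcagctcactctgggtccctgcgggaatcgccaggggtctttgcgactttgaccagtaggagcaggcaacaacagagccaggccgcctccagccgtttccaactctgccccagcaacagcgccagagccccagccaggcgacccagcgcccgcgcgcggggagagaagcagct
Mbnl2: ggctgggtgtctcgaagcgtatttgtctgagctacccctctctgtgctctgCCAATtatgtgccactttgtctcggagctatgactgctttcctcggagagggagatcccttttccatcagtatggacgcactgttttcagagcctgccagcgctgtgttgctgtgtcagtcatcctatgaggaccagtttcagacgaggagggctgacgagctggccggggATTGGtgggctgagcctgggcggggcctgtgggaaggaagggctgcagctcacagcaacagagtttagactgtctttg
Qk: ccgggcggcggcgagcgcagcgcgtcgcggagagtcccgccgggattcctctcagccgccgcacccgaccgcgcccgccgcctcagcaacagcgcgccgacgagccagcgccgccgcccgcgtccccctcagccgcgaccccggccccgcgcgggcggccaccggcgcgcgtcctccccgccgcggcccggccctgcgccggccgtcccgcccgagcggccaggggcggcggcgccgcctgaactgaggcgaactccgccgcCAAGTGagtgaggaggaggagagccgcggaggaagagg
Rbm24 had 2 CANNTG matches, Qk 1 and Mbnl2 none, while Mbnl2 had 2 CCAAT matches, and no marked match overlapped another. None of these 3 windows held TATAAA. Among all 32851 promoter windows of this length, 72.3% held CANNTG, 37.4% CCAAT and 13.6% TATAAA, so these matches are common. The Qk window held 57 CG pairs, more than 99.8% of all windows, against 18 in Rbm24, 10 in Mbnl2 and a median of 7 over all windows. A match describes the letters in the window only.

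Rbm20, the titin splicing repressor whose mutations cause dilated cardiomyopathy, was the most read of the 10, with a mean of 4813 reads per library. In control CMs it stood at 850, 2560 and 2961 CPM (scaled by TMM) at P1, at 5673, 7891, 4334 and 4493 CPM at P7 and at 3462, 911 and 1358 CPM at P14. The P7 controls lay above all P1 and all P14 controls without overlap. In depleted CMs the values were 3097, 1389, 840 and 5257 CPM at P1, 5661, 4908, 2945 and 2392 CPM at P7, and 1496, 633 and 625 CPM at P14. Here P7 overlapped with P1 and lay above all P14 libraries, and the P14 depleted mean of 918 ± 501 CPM (SD, n = 3) was the lowest of the 6 groups.

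Rbm20 fell between P7 and P14 in both genotypes. By edgeR's quasi-likelihood test, its log2 fold change was -1.55 (SE 0.37, adjusted p = 0.00426) in controls and -2.11 (SE 0.38, adjusted p = 8.93e-06) in depleted CMs, and from P1 to P14 it fell by 1.53 on the log2 scale in depleted CMs (SE 0.37, adjusted p = 0.00502). Its rise from P1 to P7 in controls, 1.40 (SE 0.37), had an unadjusted p of 0.000169 but an adjusted p of 0.272 and was not called. Leaving out any 1 of the 21 libraries kept the fall from P7 to P14 in depleted CMs past the threshold in all 21 fits, while that in controls was lost without P7 control replicate 2 (adjusted p = 0.0632), P14 control replicate 2 (0.195) or P14 control replicate 4 (0.194). The fall from P1 to P14 in depleted CMs was lost without P1 depleted replicate 4 (adjusted p = 0.257), P14 depleted replicate 3 (0.184) or P14 depleted replicate 4 (0.218). On the scale of all 24 libraries, the set-aside P14 control stood at 5183 CPM of Rbm20, above the kept P14 controls (at most 3504 CPM), and the set-aside P14 depleted library at 2062 CPM, above the kept ones (at most 1545 CPM). With all 24 libraries none of the 3 calls of Rbm20 remained, with -0.99 in controls (adjusted p = 0.334) and -1.68 in depleted CMs (0.168) from P7 to P14, and -1.09 from P1 to P14 (0.267).

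**Figure D1:**
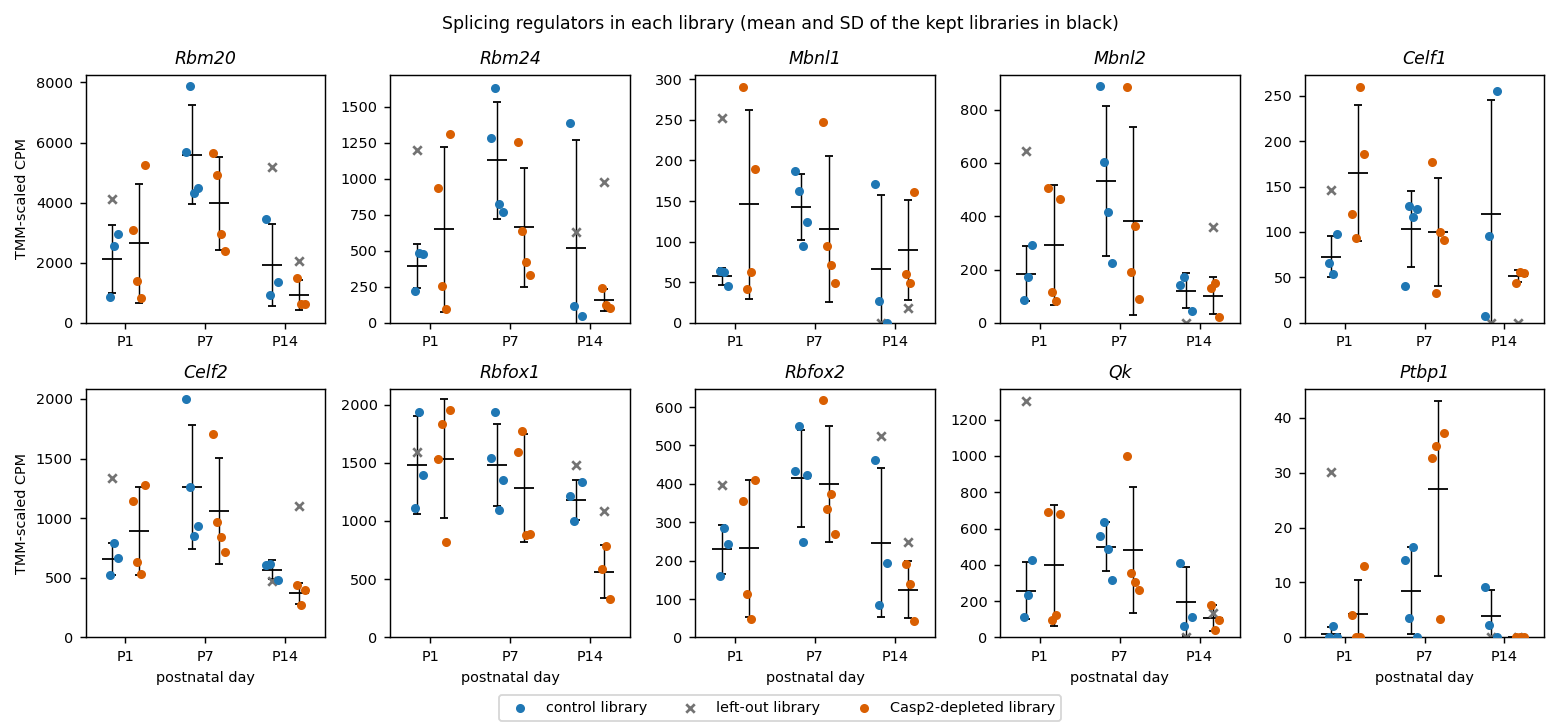
CPM scaled by TMM (vertical axis, from 0, a scale per gene) of the 10 genes at P1, P7 and P14 for control (blue) and Casp2-depleted (orange) libraries, with the mean and SD of the kept libraries in black, the SD bar clipped at 0, and the 3 left-out libraries as grey crosses scaled in the set of 24 libraries. Rbm20 spans 625 to 7891 CPM over the 21 kept libraries and is highest in P7 controls, and Ptbp1 is at 0 in all P14 depleted libraries.

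Rbm24, which promotes inclusion of muscle exons and is needed for sarcomere assembly, differed widely within groups. Control values were 221, 484 and 477 CPM at P1, 1286, 1630, 827 and 769 CPM at P7 and 1387, 116 and 44.8 CPM at P14. The P7 controls lay above the P1 controls, whereas the 3 P14 controls ranged from the lowest to the second highest of all controls. Depleted values were 938, 258, 93.4 and 1308 CPM at P1, 1255, 640, 419 and 335 CPM at P7 and 242, 124 and 102 CPM at P14. The last group lay below all P7 depleted libraries, with a log2 fold change of -2.09 (SE 0.94, unadjusted p = 0.0387, edgeR's adjusted p = 0.294), and it was not called. From P1 to P14 the value in depleted CMs was -2.06 (SE 0.94, unadjusted p = 0.0409, adjusted p = 0.275). Both passed the threshold when P1 depleted replicate 3 (adjusted p = 0.0231 and 0.0107), P14 control replicate 1 (0.00264 and 0.00475), P14 control replicate 2 (0.0313 and 0.0405) or P14 control replicate 4 (0.00285 and 0.0050) was left out. They also passed without the robust spread in edgeR (adjusted p = 0.0113 and 0.0179), and the first did with the 2 compared groups alone (-1.95, adjusted p = 0.0104). In controls the value from P7 to P14 was -1.13 (SE 0.90, adjusted p = 0.541), and it passed the threshold, at -3.81 (adjusted p = 4.21e-06), without P14 control replicate 1.

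Mbnl2, one of the muscleblind zinc-finger proteins that favour adult exons and are trapped by repeat RNA in myotonic dystrophy, had control values of 86.1, 173 and 293 CPM at P1, 888, 604, 415 and 225 CPM at P7, and 143, 173 and 45.5 CPM at P14. All P7 controls were above all P14 controls. It fell between P7 and P14, with a log2 fold change of -2.15 in controls (SE 0.595, edgeR's adjusted p = 0.0222) and of -1.91 in depleted CMs (SE 0.59, adjusted p = 0.0428). The depleted libraries overlapped, at 886, 192, 363 and 87.9 CPM at P7 and 132, 151 and 22.3 CPM at P14. The call in controls was lost without P1 depleted replicate 1 (adjusted p = 0.0556), P7 control replicate 1 (0.224), P7 control replicate 2 (0.0984) or P14 control replicate 4 (0.288), and the call in depleted CMs remained in 7 of the 21 fits.

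Mbnl1, the muscleblind paralog, showed no called change. Control values were 64.4, 62.0 and 45.3 CPM at P1, 187, 162, 94.9 and 124 CPM at P7 and 171, 27.0 and 0 CPM at P14. The P7 controls lay above the P1 controls, and the P14 controls ranged from 0 to nearly the P7 maximum. P14 control replicate 4, with no Mbnl1 read, held 891817 reads on genes, which allows up to 3.36 CPM before scaling. In depleted CMs the means were 146 ± 116 CPM at P1 (SD, n = 4), 115 ± 89.8 at P7 (n = 4) and 90.1 ± 61.8 at P14 (n = 3), closer to each other than the spread within each.

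Celf2, a CELF protein, was read at 524, 791 and 663 CPM in P1 controls, at 1996, 1258, 855 and 936 CPM in P7 controls and at 610, 617 and 478 CPM in P14 controls. Again P7 stood above both other days without overlap. In depleted CMs it was at 1143, 630, 532 and 1276 CPM at P1, 1706, 971, 845 and 715 CPM at P7 and 440, 272 and 402 CPM at P14, where the 3 values lay below those of every other group. The fall from P7 to P14 passed the test in depleted CMs, at -1.51 (SE 0.46, edgeR's adjusted p = 0.0359), and not in controls, at -1.15 (SE 0.45, adjusted p = 0.215). The difference between these changes was -0.36 with an SE of 0.62 and an adjusted p of 1. The call was kept in 11 of the 21 fits that left out 1 library.

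Celf1, known to decline as a protein in the postnatal heart, did not share this pattern. In controls it ranged over 54.2 to 97.7 CPM at P1, 40.8 to 129 at P7 and 7.78 to 255 at P14, the last from 3 libraries at 7.78, 96.0 and 255 CPM. In depleted CMs it stood at 120, 93.3, 260 and 186 CPM at P1 and at 43.7, 56.1 and 55.0 CPM at P14 without overlap, a log2 fold change of -1.67 (SE 0.84, unadjusted p = 0.0452) that had an adjusted p of 0.279 by edgeR.

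Rbfox1, the neuronal and muscle RBFOX protein and the second most read member, was nearly level in controls, with means of 1479 ± 418 CPM at P1 (SD, n = 3), 1482 ± 355 at P7 (n = 4) and 1181 ± 171 at P14 (n = 3). In depleted CMs it was read at 1532, 1836, 819 and 1957 CPM at P1, 1590, 1775, 881 and 888 CPM at P7 and 588, 782 and 326 CPM at P14. The P14 depleted libraries lay below all others. The change from P1 to P14 in depleted CMs was -1.44 (SE 0.42, edgeR's adjusted p = 0.0375), and that from P7 to P14 was -1.18 (SE 0.42, adjusted p = 0.111). The first call was kept in 10 of the 21 fits that left out 1 library, and the left-out P14 depleted library, at 1089 CPM, lay above the 3 kept ones.

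Rbfox2, its broadly expressed paralog, had group means from 124 ± 74.2 CPM in P14 depleted (SD, n = 3) to 414 ± 125 CPM in P7 control libraries (n = 4). Its 4 P7 depleted values of 618, 335, 374 and 271 CPM lay above the P14 depleted values of 190, 138 and 43.9 CPM, a log2 fold change of -1.69 (SE 0.58, unadjusted p = 0.00388) with an adjusted p of 0.0983 by edgeR.

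Qk, which encodes the quaking proteins that act in muscle and glial splicing, had control values of 114, 232 and 427 CPM at P1, 558, 638, 488 and 317 CPM at P7 and 413, 63.0 and 112 CPM at P14. Depleted values were 693, 94.0, 122 and 678 CPM at P1, 1000, 357, 304 and 263 CPM at P7 and 181, 42.2 and 94.4 CPM at P14. The P1 depleted libraries split into a high and a low pair, and the P14 depleted libraries lay below all P7 ones. Qk fell in depleted CMs from P7 to P14, by a log2 fold change of -2.18 (SE 0.57, edgeR's adjusted p = 0.00836), and from P1 to P14, by -1.90 (SE 0.57, adjusted p = 0.0431). The first call was lost without P7 depleted replicate 1 (adjusted p = 0.284), P14 depleted replicate 3 (0.276) or P14 depleted replicate 4 (0.128), and the second was kept in 6 of 21 such fits. In controls the change from P7 to P14 was -1.35 (SE 0.55, adjusted p = 0.243), with -2.52 (adjusted p = 0.0132) without P14 control replicate 1 and -0.82 (adjusted p = 0.398) without P14 control replicate 2.

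Ptbp1, a repressor that is turned down as muscle and nerve cells differentiate, was hardly read, with 13.4 reads per library on average. It reached 32.7, 34.9, 3.44 and 37.3 CPM in P7 depleted libraries (172 reads), 14.1, 3.60, 16.4 and 0 CPM in P7 controls (57 reads) and at most 13.0 CPM in any kept P1 library, while the left-out P1 control stood at 30.1 CPM. The P14 controls held 16 reads, and the P14 depleted libraries none. Against a limit of 3 reads over that group (0.659 CPM), which covers counting error only, the pooled P7 depleted level (27.3 CPM) was 41.5-fold higher. This ratio leaves out the spread between libraries. With edgeR the adjusted p of the fall from P7 to P14 in depleted CMs was 0.209, while DESeq2 gave 0.0381 and limma-voom with TMM 0.00294. The P14 depleted libraries were also shallower, with 976714 to 1167439 reads on genes against 1452114 to 2924097 in the P7 depleted ones.

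Counted over the members, the calls fell in 3 of the 6 comparisons between days. In controls, 2 of 10 (Rbm20 and Mbnl2) were called from P7 to P14, where 1.88% of all tested genes were called. In depleted CMs, 4 of 10 (Rbm20, Mbnl2, Celf2 and Qk) were called from P7 to P14 against 2.83% of all genes, and 3 of 10 (Rbm20, Rbfox1 and Qk) from P1 to P14 against 1.94%. With 1 library left out, the counts of all called genes behind these shares, 382, 577 and 396, moved over 176 to 502, 258 to 733 and 175 to 552. All 9 calls were falls, as were 380, 575 and 392 of those called genes, so the direction does not set the members apart. The called members all span at least 100 kb. Of the 3099 tested genes of that span, 97, 152 and 102 were called as falls in these comparisons. Tested genes with a position had a median of 21.4 reads per library, against 485 for Mbnl2, the least read called member. The share called among genes with as many reads was not taken. With the replicate number as a block in the edgeR fit, Rbm24 (adjusted p = 0.0154) and Qk (0.0158) joined Rbm20 and Mbnl2 in controls, while in depleted CMs the calls that remained were Rbm20 from P7 to P14 (adjusted p = 0.000124) and Rbfox1 from P1 to P14 (0.0416). Since these are bulk samples of nuclei, fewer nuclei that express a gene and less RNA per nucleus cannot be told apart.

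With edgeR, none of the 10 was called from P1 to P7 in controls, where 0.00982% of genes were called, and 3 had an unadjusted p below 0.05 (Rbm20, Mbnl2 and Celf2), against 6.67% of all genes. Beside Rbm20, Mbnl2 changed by 1.53 (SE 0.58, adjusted p = 0.626) and Celf2 by 0.94 (SE 0.45, adjusted p = 0.626). None was called from P1 to P14 in controls (0.319% of genes called) or from P1 to P7 in depleted CMs (0.0196%), and none had an unadjusted p below 0.05 in either, against 11.5 and 7.4% of genes. The all-gene counts behind the shares called in these 3 comparisons, 2, 65 and 4, moved with 1 library left out over 0 to 4 (0 without P1 control replicate 2, 4 without P14 control replicate 1 or 4), 29 to 143 (without P1 control replicate 4 and P14 control replicate 1) and 1 to 13 (13 without P1 depleted replicate 4). DESeq2 and limma-voom also called 0 in these 3 comparisons.

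By non-overlap of libraries, 4 of 10 members were higher in every P7 than every P1 control library (Rbm20, Rbm24, Mbnl1 and Celf2), against 6.89% of genes. From P7 to P14, 3 of 10 were lower in every later library in controls (Rbm20, Mbnl2 and Celf2), against 13.5%, and 7 of 10 in depleted CMs (all but Mbnl1, Mbnl2 and Celf1), against 10.9%. From P1 to P14 in depleted CMs this held for 3 of 10 (Celf1, Celf2 and Rbfox1), against 4.78%.

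In direction, 10 of 10 had a fold change above 0 from P1 to P7 in controls, with a median of 1.13 on the log2 scale against 0.21 over all tested genes, but Rbfox1 was at 0.00. In the same step 10 of 10 CM markers (median 1.42), 28 of 28 muscle genes with regulated exons (1.07) and 22 of 29 core spliceosome genes (1.10) were higher too. From P7 to P14, 9 of 10 (all but Celf1) were lower in controls (median -1.14 against -0.75) and 10 of 10 in depleted CMs (-1.80 against -0.61). Under TMM the median of all genes was thus below 0 too. Over the tested genes spanning at least 100 kb it was -0.05 in controls and 0 in depleted CMs. With total reads in place of TMM the medians of all genes were 0 for these steps, those of the members were -0.50 and -1.01, and 0 and 1 members were called. With all 24 libraries the members' median for the step from P1 to P7 in controls was 0.48. With the percentage of reads outside genes as a covariate it was -0.03 (5 of 10 higher), that from P7 to P14 was 0.31 in controls (7 of 10 higher) and -0.33 in depleted CMs (3 of 10 higher), so the direction in controls did not hold in that fit. The P7 libraries enter both steps, so these are not independent.

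**Figure D2:**
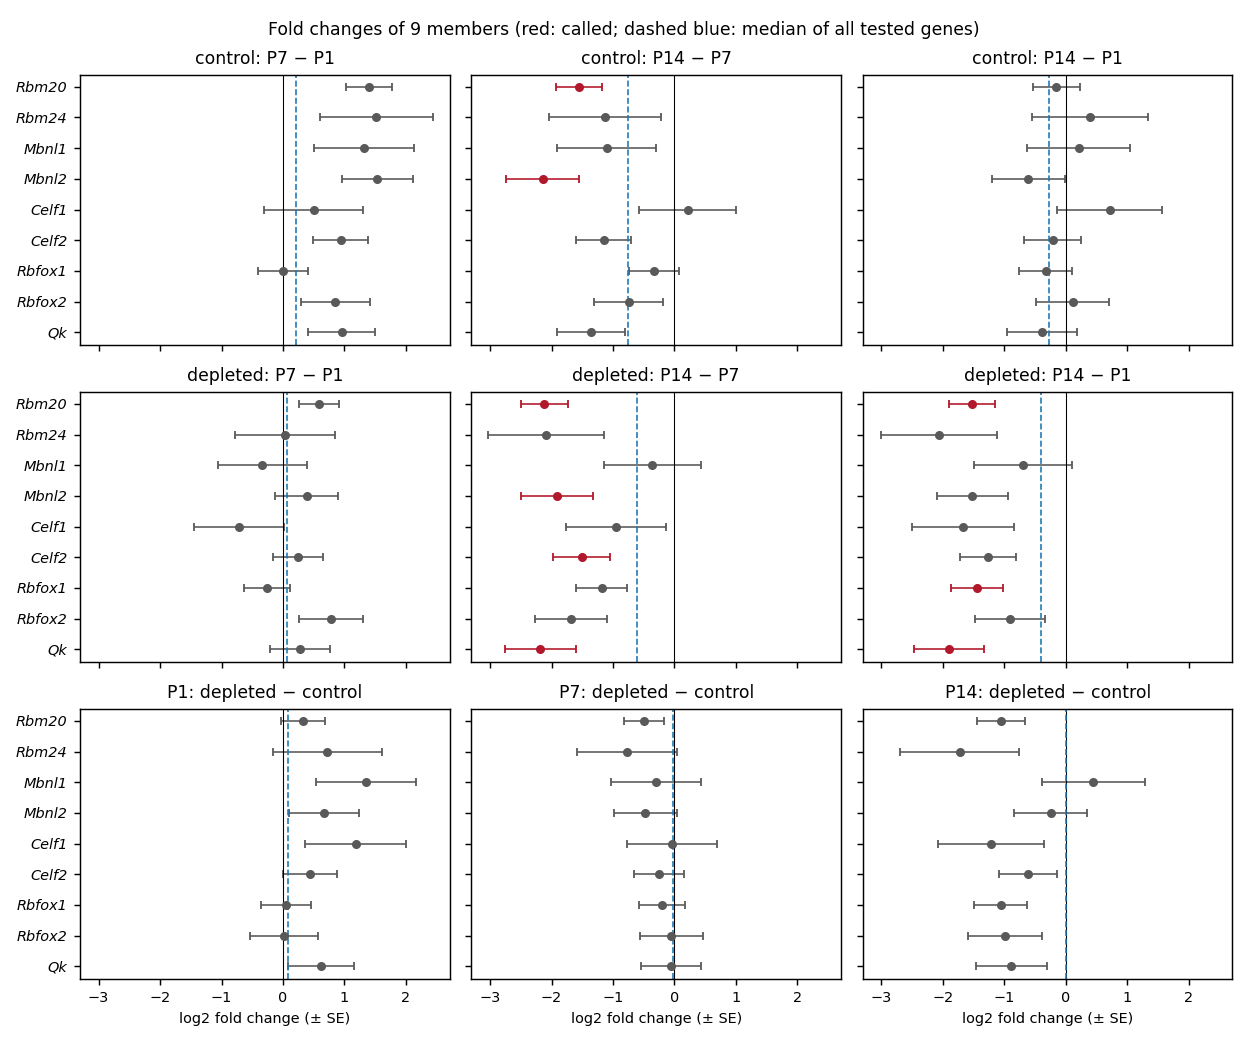
Log2 fold change with SE (horizontal axis) of 9 genes in 9 comparisons, red where called, with the median of all tested genes as a dashed line. Ptbp1 is left out because its fitted value rests on a group with no reads. The 9 red points lie in the comparison of P14 with P7 in both genotypes and of P14 with P1 in depleted CMs, and none in the 3 between genotypes.

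Between genotypes no member was called on any day. At P1 no gene of all 20368 was called (0%) and at P7 none (0%), and 0 members had an unadjusted p below 0.05 in edgeR at either day, against 7.34 and 4.22% of genes. The paper, using limma at the same thresholds, did report differentially expressed genes between genotypes at P7, some of them also by qRT-PCR. The absence of calls at P7 therefore holds for this edgeR fit only. At P14, where 0.167% of genes were called (34 genes, and 7 to 166 when 1 library was left out), 2 of 10 had an unadjusted p below 0.05, against 12.8% of genes. Rbm20 had a log2 fold change of -1.06 (SE 0.38, unadjusted p = 0.00612, adjusted p = 0.352) and Rbfox1 of -1.06 (SE 0.44, unadjusted p = 0.0152, adjusted p = 0.379). Rbfox1 and Celf2 were lower in all 3 depleted than in all 3 control libraries at P14, which held for 2.14% of genes. Rbfox1 stood at 1212, 995 and 1334 CPM in those controls and at 588, 782 and 326 CPM in the depleted libraries. Leaving out P14 depleted replicate 2 brought Rbm20 past the threshold (-1.60, adjusted p = 0.0410), whereas leaving out P14 control replicate 1 left it at -0.31 (adjusted p = 1). Leaving out P14 control replicate 4 did so for Rbm24 (-2.27, adjusted p = 0.0315).

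In direction, 10 of 10 members were higher in depleted than in control CMs at P1 (median 0.65 against 0.08 over all genes), 1 of 10 at P7 (-0.23 against -0.03) and 1 of 10, Mbnl1, at P14 (-1.03 against 0.00). The CM markers went the same way, with 9 of 10 higher at P1 (median 0.56), 0 of 10 at P7 (-0.28) and 2 of 10 at P14 (-0.50), and their part in the members' shift was not tested. The left-out P1 control library lay above the 3 kept P1 controls for 9 of 10 members, for example at 1303 against at most 432 CPM for Qk on the scale of all 24 libraries. That library, set aside in the paper for signs of cytoplasmic contamination, had 9.21% of reads on no gene, against 60.7 to 73.9% in the kept ones. With all 24 libraries the members' median at P1 was 0.01 (5 of 10 higher), with the replicate block 0.17, and with the percentage of reads outside genes as a covariate -0.22 (4 of 10 higher). At P14 it was -0.71, -0.33 and -0.63 in these fits. None of these medians was tested.

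Averaged over days, Rbm20 was the 1 member with an unadjusted p below 0.05 (-0.41, SE 0.21, unadjusted p = 0.0457, adjusted p = 0.575), against 8.4% of genes, and none was called, against 0.0147% of genes. Over the fits that left out 1 library the value for Rbm20 ran from -0.59 (without P14 depleted replicate 2) to -0.16 (without P14 control replicate 1). The differences of the day steps between genotypes were tested as such. No member was called for the step from P1 to P7 (0% of genes called, 0 members against 6.83% of genes at an unadjusted p below 0.05) or from P7 to P14 (0.0245% called), where Ptbp1 alone had an unadjusted p below 0.05, of 0.0442 (adjusted p = 0.502), against 9.76% of genes. For Rbm20 the difference was -0.56 (SE 0.50) in the step from P7 to P14. DESeq2 and limma-voom called no member in these comparisons either.

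The make-up of the member reads within a library needs no scaling between libraries. Rbm20 took 50.1 ± 3.60% (SD, n = 4) of them in P7 controls and 47.2 ± 3.96% in P7 depleted CMs, against 36.8 ± 9.34% and 35.1 ± 7.04% at P1 and 36.3 ± 7.24% and 35.5 ± 8.19% at P14. The lowest P7 control, at 45.0%, lay just above the highest P1 control, at 44.9%. Rbfox1 took 13.4 ± 1.38% in P7 controls and 28.4 ± 6.90% in P1 controls, where the libraries did not overlap (12.2 to 15.4% and 21.1 to 34.8%), and 27.5 ± 10.6% in P14 controls. In depleted CMs its share was 16.7 to 40.2% at P1, 12.1 to 19.0% at P7 and 17.4 to 34.8% at P14, with overlap at each step. The shares of a library are tied to each other, so a larger share of Rbm20 lowers the others. In CPM, Rbfox1 had control means of 1479 at P1 and 1482 at P7. These shares were described after seeing the counts and were not tested. All 10 members together took 0.286 to 1.06% of the reads on genes in single libraries.

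**Figure D3:**
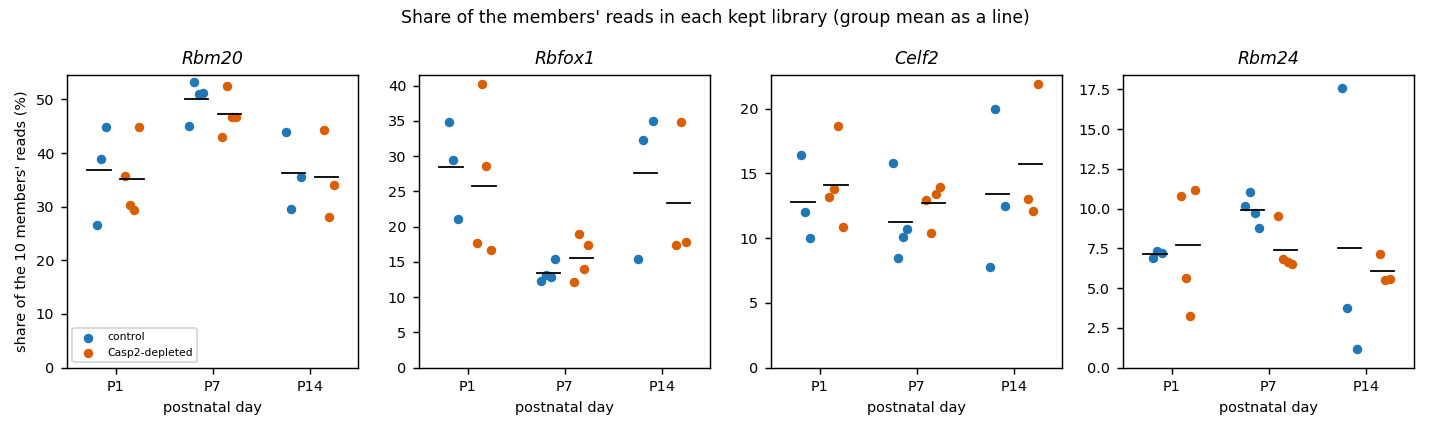
Share of the reads of the 10 genes taken by Rbm20, Rbfox1, Celf2 and Rbm24 (vertical axis, in percent) in each kept library by day, control in blue and Casp2-depleted in orange, with group means as lines. The 4 P7 controls lie at 45.0 to 53.3% for Rbm20 and at 12.2 to 15.4% for Rbfox1.

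Levels between genes are compared per 100 kb of gene span. In P7 controls Rbm24 led with a mean of 8685 CPM per 100 kb, followed by Rbm20 with 2949, Qk with 391, Mbnl2 with 341 and Rbfox2 with 182. Celf2 and Celf1, both at 130, Mbnl1 at 90.5, Ptbp1 at 82.4 and Rbfox1 at 70.4 CPM per 100 kb formed the lower end. Rbfox1, second by reads, was thus last per length. Span is a rough measure for these counts, since reads arise at 3′ ends and adenine runs and not evenly.

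The CM markers moved with the members from P7 to P14, but not in each comparison. From P1 to P14 in controls 9 of 10 markers were lower (median -0.91), against 5 of 10 members (-0.02). For the difference between genotypes in the step from P7 to P14, the medians were 0.08 for the markers and -0.84 for the members. Of the 10 markers, 10 had a fold change below 0 from P7 to P14 in both genotypes, with 4 called in each and medians of -2.40 in controls and -2.46 in depleted CMs. Their summed level, in CPM by the reads on genes without the TMM scaling used for the members, ranged over 55387 to 82158 CPM in P7 controls and 12050 to 44533 CPM in P14 controls, and over 45331 to 64934 CPM and 15695 to 27361 CPM in depleted CMs. Set against these markers, the P14 means of Rbm20 were not below its P7 means. This did not hold for each member, since Ptbp1 had 172 reads in P7 depleted libraries and 0 in P14 depleted ones. Rbm20 had 60.6 ± 17.5 reads per 1000 marker reads in P7 controls (SD, n = 4) and 85.9 ± 12.3 in P14 controls (n = 3), and 57.1 ± 17.0 and 59.2 ± 7.10 in depleted CMs. At P14 the 3 controls (73.5 to 98.1) lay above the 3 depleted libraries (52.2 to 66.4). This ratio was chosen after seeing the counts and was not tested. Other cell type markers summed to far less on the same unscaled CPM. The 8 neural markers, of which 7 or 8 had reads in each of these groups, summed to 180 to 373 CPM in P7 and 449 to 939 CPM in P14 controls, and to 212 to 455 CPM and 752 to 1036 CPM in depleted CMs. The 8 fibroblast markers, each with reads at P7 and P14, ranged over 78.9 to 213 CPM and 174 to 328 CPM in controls and over 113 to 181 CPM and 202 to 379 CPM in depleted CMs. The 8 endothelial markers ranged over 144 to 334 CPM and 53.2 to 1115 CPM in controls (Egfl7 at 0) and over 148 to 468 CPM and 587 to 630 CPM in depleted CMs (Egfl7 at 0 at both days, Cdh5 and Kdr at P14). The 7 mural markers ranged over 260 to 383 CPM and 67.2 to 510 CPM in controls and over 318 to 491 CPM and 183 to 291 CPM in depleted CMs, and the 8 macrophage markers over 48.8 to 94.8 CPM and 95.4 to 344 CPM and over 50.6 to 254 CPM and 87.0 to 301 CPM. The 5 epicardial markers, of which 2 or 3 had reads in each group, ranged over 10.3 to 33.6 CPM and 0 to 123 CPM in controls. In depleted CMs they ranged over 2.78 to 38.6 CPM and 0 to 36.0 CPM. The 6 erythroid markers stayed at or below 110 CPM in every library. The TMM-scaled fold changes of these lists from P7 to P14 had no common direction, with 5 of 7 tested neural, 3 of 8 fibroblast, 4 of 7 endothelial, 2 of 7 mural, 4 of 5 macrophage and 0 of 5 erythroid markers higher in controls, and 4, 4, 2, 2, 3 and 1 of them in depleted CMs. Of 3 tested epicardial markers, 3 were higher in controls and 1 in depleted CMs. The part of these cell types in the result was not tested.

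**Figure D4:**
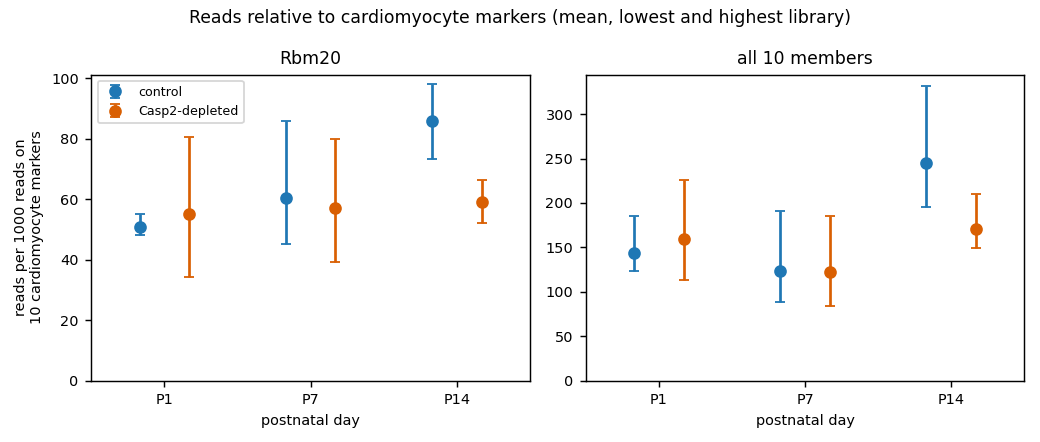
Reads of Rbm20 (left) and of all 10 genes (right) per 1000 reads on 10 CM markers (vertical axis, from 0) by day, as the mean with the lowest and highest kept library, control in blue and Casp2-depleted in orange. On this scale the controls are highest at P14, with 73.5 to 98.1 for Rbm20 and 196 to 332 for all 10 genes.

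The share of reads on no gene also moved with most members. It was 36.7 to 54.7% in P7 controls and 63.7 to 75.2% in P14 controls, and 34.3 to 64.3% and 72.2 to 76.1% in depleted CMs, so it and the day step cannot be separated well. Within groups, the library with the highest share had less Rbm20, Rbm24, Rbfox2 and Qk than that with the lowest in 6 of 6 groups. The same held in 5 of 6 groups for Mbnl1, Celf2 and Rbfox1, 4 of 6 for Mbnl2, 3 of 6 for Celf1 and 2 of 6 for Ptbp1. In P1 controls, for example, the shares of 73.9, 61.2 and 60.7% went with 850, 2560 and 2961 CPM of Rbm20. With this share as a term in the edgeR fit none of the 9 calls remained, and Rbm20 stood at -0.06 in controls and -0.48 in depleted CMs from P7 to P14.

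**Figure D5:**
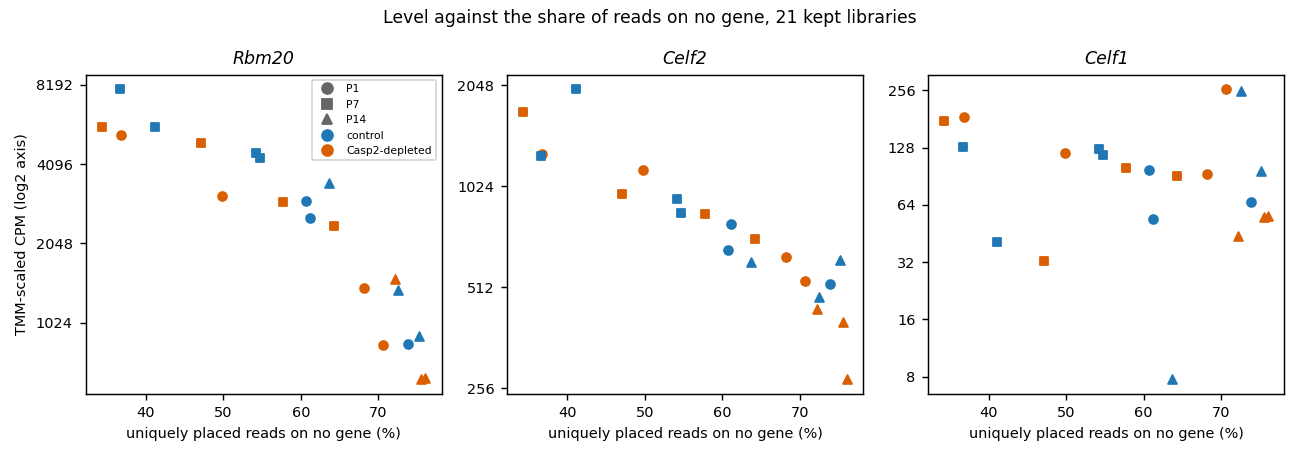
CPM scaled by TMM (vertical axis, log2) of Rbm20, Celf2 and Celf1 against the percentage of uniquely placed reads on no gene (horizontal axis) in the 21 kept libraries, with day as the symbol and genotype as the colour. The libraries lowest in Rbm20, at 625 and 633 CPM, are the P14 depleted libraries with 75.5 and 76.1% of reads on no gene, while Celf1 shows no such order.

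Genes like each member were searched among 10520 others with at least 20 reads per library on average (10521 for Ptbp1, itself below that limit). The genes closest to each member had the smallest root mean square difference of log2 CPM, centred on each gene's mean over the 21 libraries. For Rbm20 these were Prdm16 (0.37) and Ablim1 (0.39), against a median difference of 1.82 over all genes searched. Celf2 was closest to Mlip (0.29) and Nckap5 (0.31), Rbfox1 to Kcnn2 (0.39) and Ppp3ca (0.42), Rbfox2 to Acyp2 (0.45) and Map4 (0.51), and Qk to Ablim1 (0.45) and Rbpms (0.45). For Rbm24 the closest was Srl (0.55), and the closest pairs were for Mbnl2 Arhgap23 (0.51) and Pde4b (0.55), for Mbnl1 Pik3r1 (0.68) and Tanc1 (0.69) and for Celf1 Myo5a (0.69) and Ifrd1 (0.75). Ptbp1 had no close match, with 1.20 for Frg1 and 1.22 for Rgs2. Among the members, Rbm20 and Qk were the most alike pair (0.48) and Celf1 and Ptbp1 the least (2.23).

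Other genes of the pathway were taken from 3 lists of names. Of 32 other tissue-specific splicing regulators 28 were tested, and their median change from P7 to P14 was -0.75 in controls and -0.59 in depleted CMs, near those of all genes. Called among them were Msi2, a Musashi RNA-binding protein, in controls (-2.57, SE 0.48, edgeR's adjusted p = 5.20e-05), and Khdrbs1 (SAM68), Rbpms and Msi2 in depleted CMs. Rbpms, a regulator of muscle splicing, fell there by 2.00 on the log2 scale (SE 0.50, adjusted p = 0.00517). From P1 to P14 in depleted CMs the called genes were again Khdrbs1, Rbpms and Msi2. Of all tested genes, 1.88% were called in controls and 2.83% in depleted CMs from P7 to P14, and 1.94% in the last comparison. With 1 library left out, the 3 calls of the list in depleted CMs became 0 to 3 in each step, with 0 from P7 to P14 without P14 depleted replicate 3, and 0 from P1 to P14 without P14 depleted replicate 3 or P1 depleted replicate 1, and 2 or fewer in either step without P14 depleted replicate 2 or 4. No gene of this list was called between genotypes in the fit of 21 libraries, where 0.167% of all genes were called at P14. With 1 library left out, 0 to 2 of the list were called between genotypes at P14.

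Of 31 core spliceosome genes 29 were tested, with medians of -1.78 and -2.04 from P7 to P14. Of all tested genes, 1.88% were called in controls and 2.83% in depleted CMs in this step. The called ones were Sf1 and Snrnp70 in controls and 4 in depleted CMs, with Sf1, Cdc5l and Snrnp70 showing the largest changes. Leaving out 1 library moved these counts over 2 to 3 and 1 to 4, with 1 in depleted CMs without P14 depleted replicate 4 and 2 without P1 depleted replicate 1, P7 control replicate 2 or P7 depleted replicate 1, 2 or 3. Snrnp70, the U1 protein that meets the 5′ splice site, had 1559 reads in the P7 and 32 in the P14 controls, and 1145 and 46 reads in depleted CMs.

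Of 28 muscle genes with regulated exons, all tested, 27 were lower at P14 than at P7 in each genotype, and 13 were called in controls and 18 in depleted CMs, with medians of -1.89 and -2.12. Among all 20368 tested genes 12660 were lower in controls and 12232 in depleted CMs, and 1.88 and 2.83% were called. Leaving out 1 library moved these counts over 7 to 14 and 9 to 19, with 7 and 8 in controls without P7 control replicate 2 and P14 control replicate 4, and 9 and 11 in depleted CMs without P14 depleted replicates 3 and 4. Pdlim5, a Z-disc protein, fell in controls with a log2 fold change of -3.99 (SE 0.78, edgeR's adjusted p = 0.000118) and Lmo7 in depleted CMs with -3.90 (SE 0.43, adjusted p = 2.29e-15). Tnnt2, the troponin T gene with a developmentally regulated exon, fell by 2.33 from P1 to P14 in controls (SE 0.33, adjusted p = 1.12e-08). These lists were chosen with earlier results of these data known, and their counts describe them only.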

How the data were processed

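Libraries were made with the QuantSeq 3′ kit from PCM1-sorted nuclei. The authors trimmed reads (cutadapt 4.0, with FastQC 0.11.8 for quality), aligned them to GRCm39 with STAR 2.6.1e and counted them with HTSeq 2.0.3 over exons and introns, with versions from the paper and the submitters' processing notes. The deposited values are raw counts per gene, without normalization. Gene names came from GENCODE vM39 and promoter windows from RefSeq (GRCm38.p6).

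Counts of 21 libraries entered 1 edgeR 4.0.16 fit (R 4.3.3; TMM, robust quasi-likelihood F-test, 6 group means, 15 residual degrees of freedom) over the 20368 genes that had 10 or more reads summed over libraries and were detected in 3 or more. The study used limma; limma-voom 3.58.1 and DESeq2 1.42.0 were alternatives. Calls needed a Benjamini-Hochberg adjusted p under 0.05 together with a log2 fold change beyond 1 in either direction. SEs are the log2 fold change over the root of F. In simulated counts (control P7 against P1) the fit recovered changes at a low spread between replicates. It did not at the common spread over all tested genes, a biological coefficient of variation of 1.50, which is not that of the members alone. The spread was an input of the simulation, so the outcome does not show what could be called among the members. Reads on no gene (34.3 to 76.1% of uniquely placed reads) stayed out of library sizes, and groups without reads were given a limit of 3 reads, which covers counting error only. No molecular identifiers are named.

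Replicates were separate pools of hearts. Kept replicates of a group differed beyond sampling noise (chi-square per degree of freedom 17.8 to 75.3 over 27 pairs). Replicate numbers match a batch number in the deposited names, and same-numbered libraries of a day deviated from their group means with correlations of -0.06 to 0.19 (9 pairs). The members and gene lists were chosen with earlier results of these data known. Named were all members, with fold changes where the unadjusted p was below 0.05, at most 3 called genes per list and comparison by the largest fold change, the 2 closest genes per member, and Casp2. Some genes that this rule would name are not reported here.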

Additional observations from a re-analysis of the deposited data

Results flagged for a closer look

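In groups of 4 libraries, a library was marked when its gap to the nearest other one, as a share of the group's range, passed Dixon's critical value at the 95% level. Of 30 such groups of members, 3 held a marked library, and chance marks about 1 in 20, or 1.5 of 30. Celf1 stood at 40.8 CPM in P7 control replicate 1, below the other 3 at 117 to 129 CPM. Qk reached 1000.1 CPM in P7 depleted replicate 1 against 263 to 357 CPM in the other 3. Ptbp1 was at 3.44 CPM in P7 depleted replicate 3 and at 32.7 to 37.3 CPM in the other 3.

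The set-aside P14 depleted library, used only in the alternative fit of all 24 libraries, held 361 CPM of Mbnl2 and 1099 CPM of Celf2 on the scale of all 24 libraries. The highest kept P14 control was at 178 and 635 CPM, and the kept P14 depleted libraries were at 23.7 to 158 and 286 to 454 CPM. The same library had 4285 genes detected, against 9428 to 12327 in the kept libraries of its group.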

How the results depend on the processing

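Member calls numbered 2 from P7 to P14 in controls, 4 from P7 to P14 in depleted CMs and 3 from P1 to P14 in depleted CMs. In this order they were 1, 2 and 1 with DESeq2's size factors in edgeR, 0, 1 and 0 scaled by total reads, 0, 1 and 0 with filterByExpr, 1, 3 and 1 with no filter, 0, 0 and 0 with all 24 libraries, 0, 2 and 1 with DESeq2, 0, 1 and 0 with limma-voom under either TMM or quantile normalization, 1, 2 and 1 thinned to equal depth, and 1, 3 and 0 with the 2 compared groups alone. Without the robust spread, an alternative added after seeing the data, they were 1, 3 and 2. With the replicate block they were 4, 1 and 1. With the percentage of reads outside genes as a covariate they were 0, 0 and 0, and, of the fold changes with an unadjusted p below 0.05, those of Qk in controls from P7 to P14 (0.35), of Rbm24 (0.25) and Mbnl2 (0.27) from P7 to P14 and of Rbm24 (0.16), Mbnl2 (0.27) and Qk (0.011) from P1 to P14 in depleted CMs turned above 0. Over all 10 members, 7 were higher from P7 to P14 in controls in that fit, against 1. The other comparisons had 0 member calls under all of these. The shares of all tested genes called in these fits are not given here, so these counts do not set the members apart from other genes. The cause of these changes was not tested.

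Leaving out 1 library at a time (21 fits) gave 0 to 4, 1 to 5 and 0 to 4 member calls in these 3 comparisons, 0 to 1 from P1 to P14 in controls (Rbm24, without P14 control replicate 1), 0 to 1 between genotypes at P14 and 0 elsewhere. In depleted CMs from P7 to P14, the call of Mbnl2 was lost in 14 fits, with the highest adjusted p of 0.494 without P14 depleted replicate 4 and 0.447 without P7 depleted replicate 1, and that of Celf2 in 10, with 0.379 without P14 depleted replicate 3 and 0.317 without P7 depleted replicate 1. From P1 to P14, Rbfox1 was lost in 11 fits (0.377 without P14 depleted replicate 4) and Qk in 15 (0.353 without P14 depleted replicate 3 and 0.331 without P1 depleted replicate 1). The fall of Rbm20 from P7 to P14 in depleted CMs was kept in 21 of 21 such fits (adjusted p 5.55e-07 to 0.00863) and in 9 of 13 alternatives, not in either limma-voom fit, where the 1 member called was Ptbp1. In these 13 alternatives, the calls in controls were kept in 4 (Rbm20) and 3 (Mbnl2), those of Mbnl2, Celf2 and Qk from P7 to P14 in depleted CMs in 0, 1 and 5, and those of Rbm20, Rbfox1 and Qk from P1 to P14 in 3, 3 and 0. The groups held 3 or 4 libraries with 891817 to 2924097 reads on genes, and Ptbp1 had 13.4 reads per library. Whether group size or depth limited the calls was not tested.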
